A study of Mus musculus with 6 samples.

Results

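The AP-1 transcription factor genes Jun, Junb, Jund, Fos, Fosb, Fosl2, Atf2, Atf3, Batf and Maff were followed on 6 Illumina bead arrays of mouse T cell acute lymphoblastic leukemia. Every probe that the platform's annotation assigns to one of these symbols was taken, which gave 18 probes for the 10 genes, out of 45281 probes and 19057 named genes. The leukemia had been induced by NOTCH1, and cells positive for GFP, CD4 and CD8 were sorted from the bone marrow of male mice 4 weeks after transplantation. The arrays fall into 3 controls, labelled wild type and called C1 to C3 here, and 3 labelled as Klf4 knockouts, called K1 to K3. The strain, age, the allele and the way Klf4 was deleted, the vector behind GFP and any pooling of mice are facts not given in the sources used here. Nothing says that the arrays of a group come from separate mice, so p-values measure the spread between these samples, which may be technical.

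AP-1 is a dimer of basic leucine zipper proteins. Jun proteins pair with one another, with Fos proteins or with members of the Atf, Batf and Maf families, and the dimers bind short DNA elements in promoters and enhancers. Stress kinases such as JNK phosphorylate Jun and Atf2, and in T cells AP-1 is induced within minutes of stimulation and acts with NFAT. Fos, Fosb, Jun, Junb and Atf3 are immediate early genes, whose transcription rises quickly and briefly, whereas Jund and Atf2 are expressed more steadily.

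Promoter sequence is shown for 4 members, Fos, Fosb, Jun and Junb, since they are the immediate early members with signal on these arrays. Each line gives the 120 bases before the annotated start of the gene, 5′ to 3′ on the gene's strand, from RefSeq's table for build GRCm38.p6. Capitals mark TGACG or CGTCA, the core of the cyclic AMP response element, extended to TGACGT where present, on either strand. They also mark TGACATCA, the variant AP-1 element of the Jun promoter, with its reverse TGATGTCA, as well as TATAAA on the gene's strand and CCAAT or its reverse ATTGG.
Fos, chr12:85473770-85473889, plus strand: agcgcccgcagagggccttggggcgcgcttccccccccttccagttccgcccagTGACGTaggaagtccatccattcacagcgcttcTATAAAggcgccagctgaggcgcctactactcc
Fosb, chr7:19310046-19310165, minus strand: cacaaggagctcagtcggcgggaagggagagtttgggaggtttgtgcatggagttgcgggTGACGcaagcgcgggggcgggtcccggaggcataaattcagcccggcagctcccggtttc
Jun, chr4:95052223-95052342, minus strand: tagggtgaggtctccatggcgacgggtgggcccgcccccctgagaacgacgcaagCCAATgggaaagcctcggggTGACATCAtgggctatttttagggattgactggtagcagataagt
Junb, chr8:84978749-84978868, minus strand: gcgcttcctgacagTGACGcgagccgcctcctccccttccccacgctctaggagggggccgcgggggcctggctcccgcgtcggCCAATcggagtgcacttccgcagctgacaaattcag
Within these windows the TGACG core began 66 bases before the start in Fos, 60 in Fosb and 106 in Junb, while Jun carried TGACATCA from base 45. Over the 250 bases before the start, a TGACG core on either strand occurred in 17.8% of the 32851 promoters in the table and in 7 of the 12 listed for the 10 genes, which include 3 for Maff. Of all promoters, 2.93% held TGACATCA, 6.47% TGACGT and 33.8% CCAAT on either strand, and 7.59% TATAAA on the gene's strand, and of the 12 these were found in 2, 4, 3 and 1. TGACG lies within TGACGT and TGACGTCA, so those counts overlap. The standard AP-1 element, TGAGTCA or its reverse TGACTCA, occurred in 4.46% of all and in 0 of the 12, and the full element TGACGTCA in 1.55% and in 1, a Maff promoter. These are matches of letters, and no binding was measured on these arrays.

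Values below are the deposited probe signal on a linear scale, from which a background had been subtracted. A probe counted as above background on an array where its signal passed a limit between 21.9 and 23.7, which is 3 times the SD of the background estimated from the values below 0. Differences are given on a log2 scale after quantile normalization of the arrays and addition of 16 to every value, as the arrays labelled Klf4-deficient (K1 to K3) minus controls. They come from limma with Benjamini-Hochberg adjustment over all 45281 probes and a threshold of 0.05. The added 16 makes the differences of dim probes smaller than those of the signal itself. On their mean over all arrays, 10 of the 18 probes and 8 of the 10 genes were above the limit. Fosb is among them only through K1, which gave 196.7 against -6.4 to 27.8 on the other arrays. Counts and medians of the bright members below include it. Atf3 and Maff had no probe above it on any array.

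The number of probes above the limit ran from 17152 to 17446 per array, and K3 stood apart on the first principal component, which held 46.4% of the variance. The mean deposited signal was 359.5 on K3 and 417.3 to 445.1 on the other arrays. Deposited signals quoted here are not corrected for this. Double-positive T cell markers were strong on every array, with Cd8b1 between 25891.8 and 29424.4 and Cd4 between 1044 and 1477.3, although the brightest Cd8a probe gave 12 to 34. Some markers of other cells were as strong, with erythroid Hba-a1 between 31501.2 and 39930.6 and neutrophil S100a8 between 23293.6 and 29463.9. Epb42 and Mmp8, from the same 2 marker lists, were under the limit on all 6 arrays. The source of this signal was not tested. A Klf4 probe gave 44, 18.4 and 24.6 in the controls and 80.6, 46 and 85.4 in the arrays labelled Klf4-deficient, thus more signal in the group whose label says the gene is lost. The 2 other Klf4 probes were under the limit on all 6 arrays. Where the probes lie relative to the deleted part is not known, so Klf4 checks nothing about the deletion, and each direction given here rests on the labels.

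No AP-1 probe passed the adjusted threshold in limma (0 of 18, where 2 of the 45281 probes, or 0.00442%, passed). At an unadjusted p under 0.05, 1 of the 18 was higher and 0 were lower, against 2.64% and 3.41% of all probes. The same probe, that of Junb, was the only one of the 18 whose values in K1 to K3 lay beyond all 3 controls, a separation found in either direction for 9.56% of all probes and for 16.5% of the 17223 with a mean above the limit. The count of member probes apart in either direction was 6 without C3, 3 without C2 and 2 without K1 or K3. Of all probes, 15.1%, 16.2%, 18.8% and 16.7% were then apart. These counts mix directions and include dim probes. An Atf2 probe and the brighter Maff probe were lower without C3, as was Atf3 without C2. The median difference was 0.03 over the 18 probes, beside 0 over all probes. Over the 10 bright ones, which include Fosb, it was 0.28, beside -0.02 over all bright probes. On simulated arrays of the same probes, 93 of 100 probes changed by 2 on the log2 scale were recovered and 48 of 100 changed by 1. Only probes above the limit were changed there, and each was given the typical spread of its signal level. No simulated probe had a spread of its own, wider or narrower, as real probes do. Because limma shares information on spread between probes, it gains from such evenness. These shares may therefore be too high for every probe, and they set no rate of recovery for the real arrays.

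**Figure D1:**
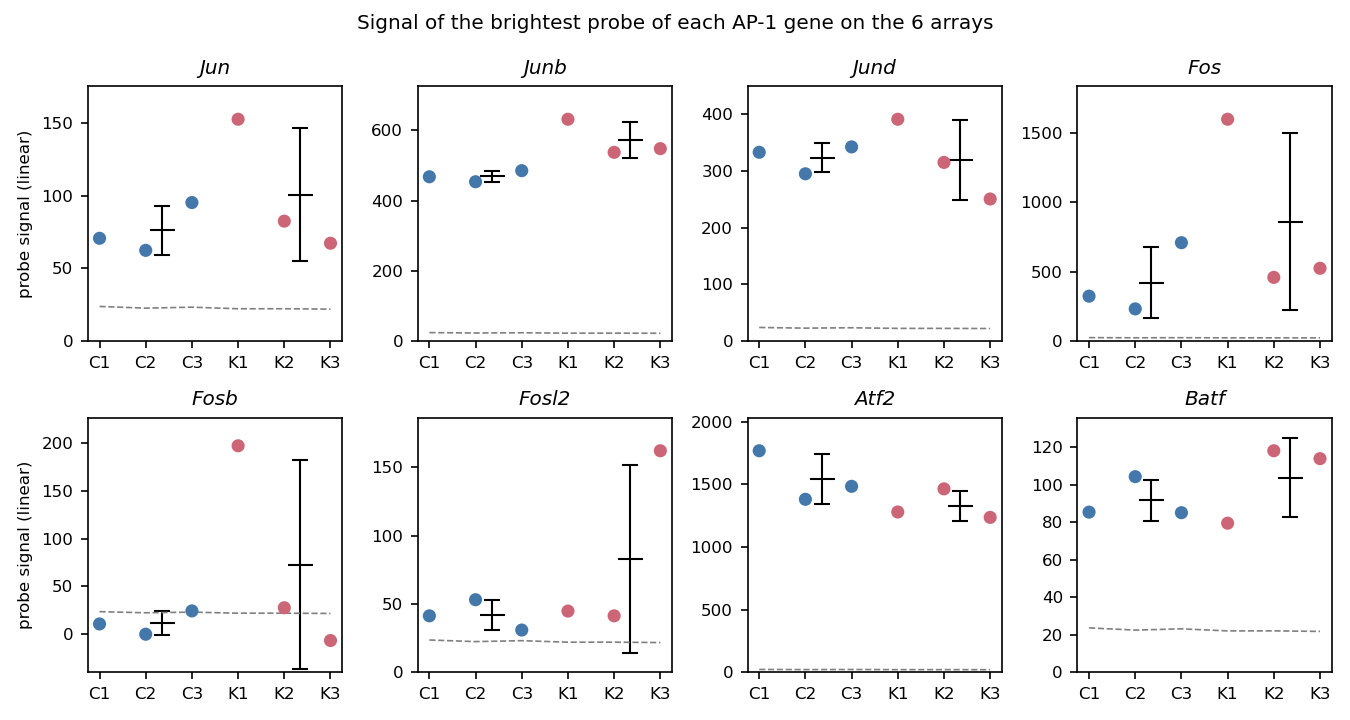
Deposited signal (linear axis) of the brightest probe of the 8 AP-1 genes above the background limit, on the control arrays (C1 to C3, blue) and the arrays labelled Klf4-deficient (K1 to K3, red). Black bars are the group mean and SD (n = 3) and the dashed line is each array's background limit. Jun, Jund, Fos and Fosb are highest in K1 (152.5, 391.3, 1599.8 and 196.7), Fosl2 in K3 (162.2), and Junb alone has all 3 red points above all blue points.

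Junb, a Jun protein that can act in place of Jun or against it, was higher on every array labelled Klf4-deficient than on any control. Its main probe gave 468, 453.8 and 485.4 in the controls and 632, 537.7 and 548.2 in K1 to K3, with means of 469 ± 15.8 and 573 ± 51.7 (SD, n = 3). The groups did not overlap, and the lowest of the labelled group came from K2. The log2 difference was 0.39 ± 0.09 (SE; 95% interval 0.15 to 0.62), or 1.31-fold. In limma its adjusted p was 0.599, above the threshold, and its unadjusted p 0.00821. Leaving out any 1 array kept the groups apart, with differences from 0.34 to 0.47 and adjusted p from 0.194 to 0.877. A further Junb probe, designed on another transcript record, lay under the limit on all 6 arrays.

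Jun encodes the best known target of JNK, the kinase pathway that the study's title names. Its probe gave 70.6, 62.3 and 95.2 in the controls and 152.5, 82.4 and 67.2 in the arrays labelled Klf4-deficient. K1 was the highest, and K3 lay below 2 of the 3 controls in deposited signal but above 2 of the 3 after normalization, so the groups overlapped on both scales. The means were 76.0 ± 17.1 and 101 ± 45.5 (SD, n = 3). Jun differed by 0.36 ± 0.30 (SE; 95% interval -0.42 to 1.13; adjusted p = 0.825 from limma). Without K1 the difference was 0.07 ± 0.17, and without C3 it was 0.49 ± 0.34 with groups that did not overlap.

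Jund, the Jun protein with the steadiest expression in many cells, gave 333, 295 and 342.5 in the controls and 391.3, 315.1 and 250.5 in K1 to K3. The labelled group thus held both the highest and the lowest of the 6 values. Its log2 difference was 0.06 ± 0.12 (SE; 95% interval -0.25 to 0.37), with an adjusted p of 1 in limma. The sign turned to -0.06 without K1, to -0.01 with arrays centred on their median and to -0.04 with no normalization.

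Fos, the founding partner of Jun in AP-1, varied more between arrays on the log2 scale than any Jun gene did. The controls gave 323, 231.1 and 709, and the arrays labelled Klf4-deficient 1599.8, 458.6 and 524.3. C3 exceeded K2 and K3, and the highest value of all was that of K1. The group means were 421 ± 254 and 861 ± 641 (SD, n = 3). On the log2 scale Fos differed by 1.02 ± 0.64 (SE; 95% interval -0.65 to 2.69; adjusted p = 0.825 from limma). The difference was 0.50 without K1 and 1.45 without C3, and in the latter case the groups did not overlap.

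Fosb, a close relative of Fos, was above background on 1 of 3 controls and on 2 of the 3 arrays labelled Klf4-deficient. It gave 10.9, 0.2 and 24.5 in the controls and 196.7, 27.8 and -6.4 in the arrays labelled Klf4-deficient. A single value, from K1, was far above the limit, and the lowest of the 6 came from K3. Its difference of 1.04 ± 1.06 (SE; 95% interval -1.75 to 3.82; adjusted p = 0.849 from limma) was 0.03 without K1 and 1.92 without K3, and in the latter case the groups did not overlap.

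Fosl2, which encodes the Fos-related protein Fra-2, was high on 1 array. Its bright probe gave 41.4, 53.2 and 31 in the controls and 44.9, 41.4 and 162.2 in K1 to K3. K1 and K2 lay within the range of the controls, and K3 lay above all others. The difference of 0.66 ± 0.57 (SE; 95% interval -0.83 to 2.15; adjusted p = 0.825 from limma) was 0.08 without that array, and without C2 it was 0.83 with groups that did not overlap. Both other Fosl2 probes were under the limit on every array, with signals from -8.2 to 13.2. The summed signal of the monocyte and macrophage markers was highest on the same array, although single markers such as Mrc1 and C1qc were highest in K2. The 16 measured of 18 summed to between 5092 and 6934 in the controls and to 6201, 7110 and 16480 in K1, K2 and K3, and 0 of them were at or below 0 on every array. The 11 neutrophil markers, none of them at or below 0 on every array, summed to between 71990 and 99970 in the controls and to 73200, 77320 and 136200 in K1, K2 and K3. The part of these cells in the Fosl2 value was not tested. In sorted bulk samples, more cells of a type and more RNA per cell cannot be told apart.

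**Figure D2:**
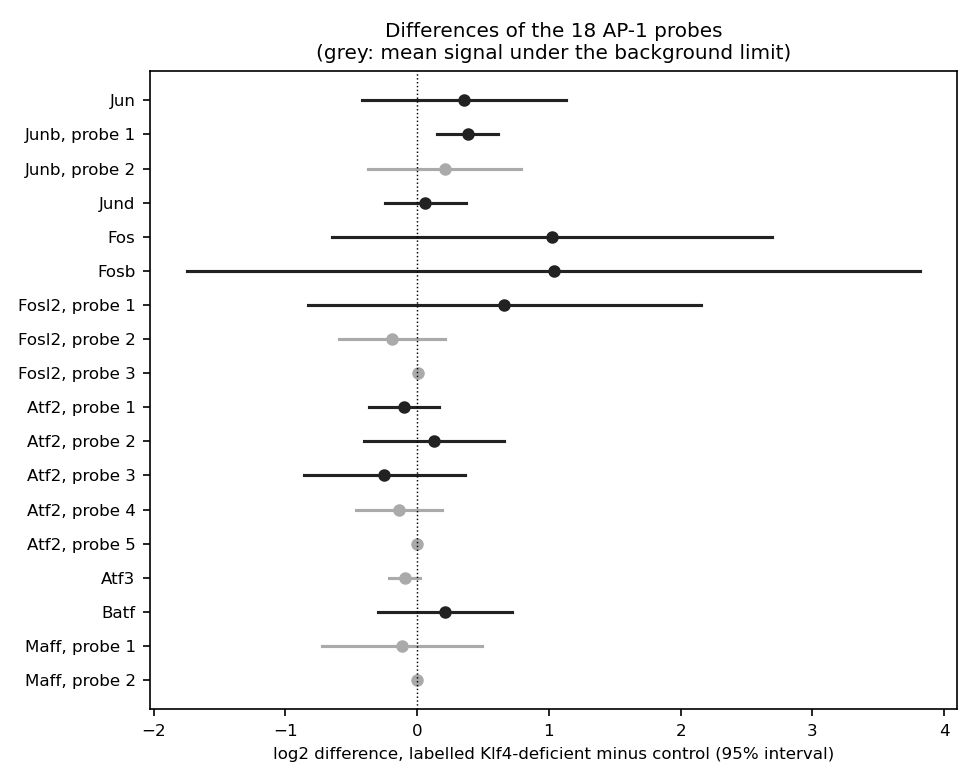
Log2 difference, arrays labelled Klf4-deficient minus controls, of each of the 18 AP-1 probes, with the 95% interval from limma as a line; grey marks probes with a mean signal under the background limit. Only the interval of Junb, probe 1, among the probes above the limit lies clear of 0 (0.15 to 0.62), and the widest is that of Fosb (-1.75 to 3.82).

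Atf2, a stress kinase target that pairs with Jun on the cyclic AMP response element, had 5 probes, of which 3 had a mean above the limit. The brightest gave 1767.5, 1380.4 and 1483.8 in the controls and 1279.2, 1463.7 and 1236.2 in K1 to K3, and the groups overlapped. Its log2 difference was -0.10 ± 0.10 (SE; 95% interval -0.36 to 0.17; adjusted p = 0.848 from limma). The next probe, from 77 to 114.2 over all arrays, differed by 0.13 ± 0.20, and the dimmest of the 3, above background on 2 of 3 controls and on K3 alone of the others, by -0.25 ± 0.23. The probes of Atf2 therefore differed in sign, each by about its own error.

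Batf, a small AP-1 protein without an activation domain that works with Jun proteins and interferon regulatory factors in lymphocytes, gave 85.4, 104.3 and 85.1 in the controls and 79.5, 118.1 and 113.9 in the arrays labelled Klf4-deficient. Of these deposited signals K1 had the lowest and K2 and K3 the highest. Jun, Fos and Fosb were highest in K1 instead. Batf differed by 0.21 ± 0.19 (SE; 95% interval -0.30 to 0.72; adjusted p = 0.825 from limma). Without K1 the difference was 0.37 ± 0.15 and the groups did not overlap.

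Atf3, a stress-induced repressor, and Maff, a small Maf protein that also lacks an activation domain, were not well above background on any array. The Atf3 probe ran from -15.4 to 1.8 and the brighter Maff probe from 4.2 to 16.5, so no fold is given.

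The array with the highest value differed between members. On the normalized log2 scale, 4 of the 8 bright members, Jun, Jund, Fos and Fosb, were highest in K1, as were 18.7% of the 9208 bright genes, a count made after the values were seen. Fosb had a mean above the limit only through K1, so its place in this count was set by that filter. Relative to the mean of the controls, K1 lay at 0.93 for Jun, 0.46 for Junb, 0.30 for Jund, 2.06 for Fos and 3.04 for Fosb. The marker lists of other cells were not highest there. By the median of its genes, the monocyte list lay at 0.22 in K1 against 0.84 and 1.48 in K2 and K3. The neutrophil list lay at -0.19 against -0.07 and 1.20, the erythroid list at 0.18 against 1.22 and 2.15, and the NK list at 0.35 against 0.42 and 0.73. K1 was above every control in the monocyte, erythroid and NK lists, where controls reached 0.21, 0.16 and 0.04. In the neutrophil list it lay within the controls, which ran from -0.31 to 0.35. The part of other cells in the K1 values was not tested. Gzmb, among the 10 NK markers measured, was at or below 0 on every array.

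**Figure D3:**
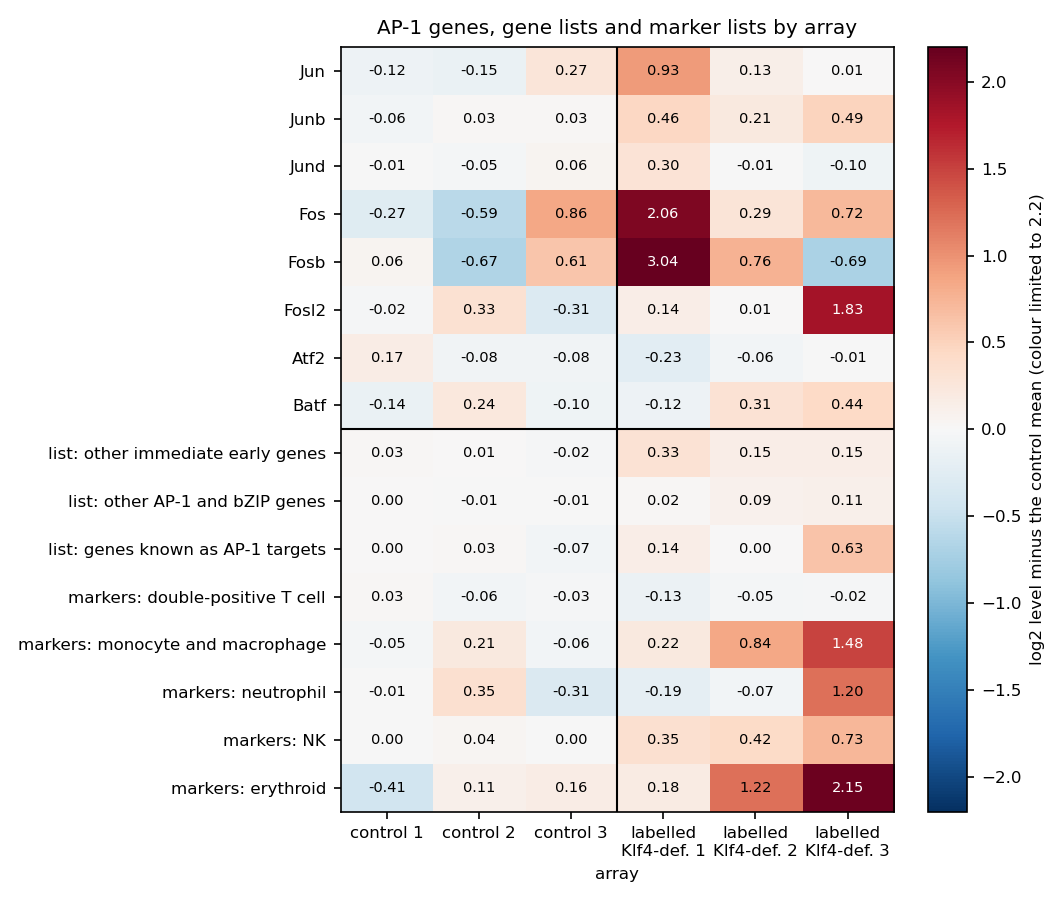
Level on each of the 6 arrays (columns) minus the mean of the 3 controls, on the normalized log2 scale, for the 8 bright AP-1 genes (upper block) and as the median of gene and marker lists (lower block); red is above and blue below the control mean. Jun, Fos and Fosb are reddest in the first array labelled Klf4-deficient, K1 (0.93, 2.06 and 3.04), while Fosl2 (1.83) and the monocyte (1.48) and neutrophil (1.20) markers are reddest in K3.

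Other immediate early genes, the wider set in which Fos and Jun are usually counted, were read from a list of 32, of which all were measured and 26 were bright. This list, like the other gene lists below, was chosen with earlier results of these data known. Its counts therefore describe the listed genes and are no independent test. In limma 0 of the 32 passed, against 0.00525% of all genes. At the unadjusted threshold of 0.05, 6 were higher and 0 were lower, against 3.45% and 4.14% of all genes at their brightest probe. The 26 bright genes had a median log2 difference of 0.18, beside -0.01 over all bright genes, and 10 of them had all values of K1 to K3 above all controls after normalization, against 7.71% of bright genes. Over all 32 the count was 11, and it was 7 with arrays centred on their median and 6 with no normalization, settings under which the share of all bright genes was 3.68% and 3.13%. Leaving out 1 array gave 11 to 13, with 0 to 2 apart in the lower direction, while the share of all bright genes apart in the higher direction was then 10.9% to 14.6%. The counts over all 32 include the dim genes of the list, whereas these shares are of bright genes only.

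Ppp1r15a, which encodes the stress-induced regulator of eIF2 alpha phosphatase, gave 454.1, 447.7 and 669.4 in the controls and 1484, 1033.8 and 879.5 in the arrays labelled Klf4-deficient (log2 1.19 ± 0.23 SE, adjusted p = 0.537 from limma). Like Fos, it was highest in K1 and, among the controls, in C3. The activation marker Cd69 gave 556.3, 715.7 and 635.4 against 1164.5, 1241.5 and 851 (0.85 ± 0.15). Plk3, a stress kinase of the polo family, differed by 0.45 ± 0.12 and Rgs1, a regulator of G protein signalling, by 0.93 ± 0.27. Adjusted p values of the last 3 in limma were 0.509, 0.686 and 0.687. All 4 had groups that did not overlap.

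The Egr genes, zinc finger factors induced together with Fos in many cells, are named here after their values were seen. Egr1 gave 2739.4, 2777.2 and 2199.3 in the controls and 2182.1, 2556.9 and 2244.1 in the arrays labelled Klf4-deficient, a difference of -0.04 ± 0.15. K1, where Fos was highest, gave the lowest of the 6 signals. Egr2 and Egr3 differed by 0.02 ± 0.23 and -0.14 ± 0.30. Dusp1, a MAP kinase phosphatase, and Klf6, a Krüppel-like factor, also named after their values were seen, had their highest values in K1, at 2070.2 and 4356.8, against at most 1124.7 and 2418.6 on the other arrays. Of the 26 bright genes of the list, 13 were highest in K1 on the normalized scale, against 18.7% of all bright genes.

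Other basic leucine zipper genes were measured for 22 of 24, and 14 were bright. In limma 0 passed, and the median of the bright genes was 0.15. At the unadjusted threshold 1 of the 22 was higher and 0 were lower, a share near the 3.45% and 4.14% of all genes. Ddit3, the stress factor CHOP, differed by 0.14 ± 0.03 (adjusted p = 0.587), Atf7, a relative of Atf2, by 0.15 ± 0.06, Creb1, which binds the cyclic AMP response element, by 0.38 ± 0.18, and Atf4, the effector of the integrated stress response, by 0.31 ± 0.18 (adjusted p = 0.825 for the last 3). The groups were apart for Ddit3, Atf7 and Creb1 on the normalized scale. Their deposited signals overlapped, as for Creb1 with 96.9, 95.9 and 103.7 against 163.7, 134.8 and 91.2.

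Among kinases and other regulators of AP-1, 16 of 18 were measured and 14 were bright, with a median of -0.01 over the bright ones. In limma 0 passed, and at the unadjusted threshold 1 of the 16 was higher and 0 were lower, again near the 3.45% and 4.14% of all genes. Mapk14, the p38 alpha kinase, differed by 0.23 ± 0.05 (adjusted p = 0.590), Mapk9, or JNK2, by -0.18 ± 0.08, Map3k1, a kinase upstream of JNK, by -0.10 ± 0.05, and Mapkapk2, a kinase downstream of p38, by 0.20 ± 0.12 (adjusted p = 0.825 for each). Mapk8, or JNK1, named after its values were seen, differed by 0.03 ± 0.05. These are transcript levels and say nothing of phosphorylation.

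Partners of AP-1 in T cells, 8 of 8 measured and 7 bright, had a median of -0.10 over the bright genes, and 0 passed at the adjusted or the unadjusted threshold. Irf8 differed by 0.44 ± 0.20, Nfatc1 by -0.16 ± 0.08, Ets1 by -0.10 ± 0.06 and Runx1 by -0.36 ± 0.24 (adjusted p = 0.825 for each in limma). Irf8 is also expressed in monocytes. It gave 60.2, 48.4 and 67.8 in the controls and 62, 82.2 and 98.9 in K1 to K3. The part of monocytes in these values was not tested.

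Genes known from other systems as AP-1 targets were measured for 19 of 20, and 12 were bright. In limma 0 passed, and the median of the bright genes was 0.31. At the unadjusted threshold 3 were higher and 0 were lower, against 3.45% and 4.14% of all genes. Of these 3, Vim was bright, while Timp1 was under the limit on all 6 arrays and Ifng was above it on 1. Vim, the intermediate filament vimentin, gave 678.8, 747 and 784.3 in the controls and 882, 897 and 921.8 in the arrays labelled Klf4-deficient (0.40 ± 0.13, adjusted p = 0.753), and its groups did not overlap. Tgfb1 differed by 0.16 ± 0.07, the metallothionein Mt1 by 0.94 ± 0.48 and Ccnd1, or cyclin D1, by 0.58 ± 0.37 (adjusted p = 0.825 for each). Mt1 and Ccnd1 had their highest signals in K3, at 2016.1 and 186.6, and Tgfb1 in K2, at 862.6. Relative to the control mean, the median of the 19 measured genes was 0.14 in K1, 0 in K2 and 0.63 in K3. Plaur, the urokinase receptor, and the matrix protease Mmp9, chosen after their values were seen, were highest in K3, at 162.1 and 1786.5 against at most 57.7 and 754.3 elsewhere. The summed signals of the monocyte and neutrophil lists were also highest on that array, though not those of every marker, as S100a8 was lowest there at 23293.6. The part of those cells in the values of these genes and in the median of the list was not tested.

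**Figure D4:**
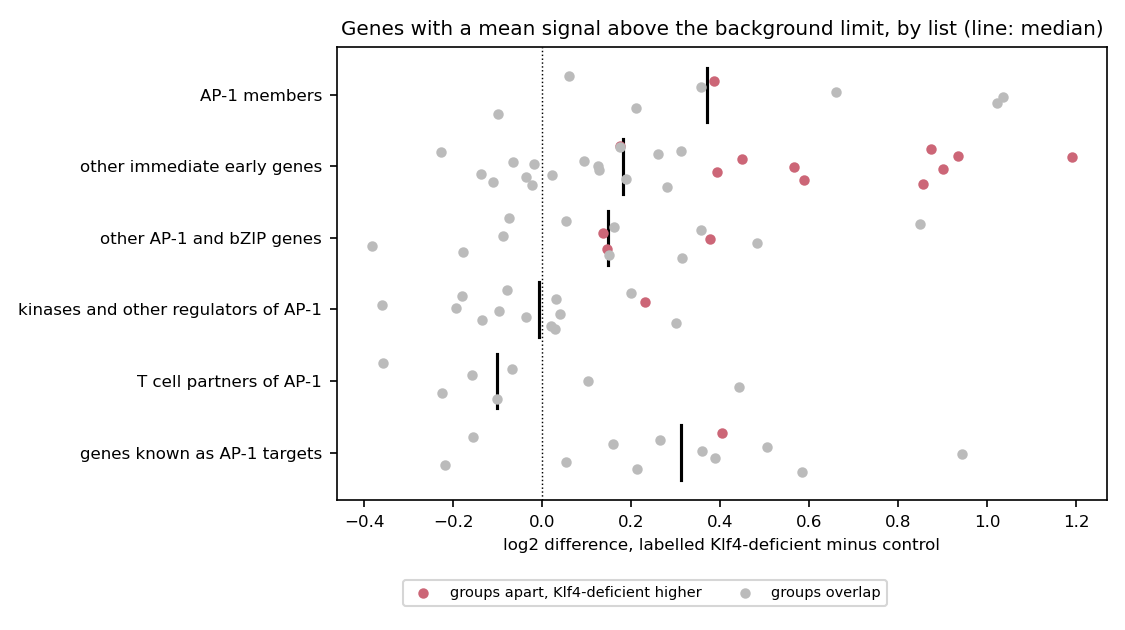
Log2 difference, arrays labelled Klf4-deficient minus controls, of every gene with a mean signal above the background limit in 6 lists; each point is 1 gene at its brightest probe, red where K1 to K3 lie above all controls and grey where the groups overlap, and the black line is the list's median. The medians are 0.37 for the 8 AP-1 members, 0.18 for other immediate early genes and -0.10 for the T cell partners. Over all bright genes the median is -0.01. Fosb is among the 8 members only through K1. No gene plotted has K1 to K3 below all controls.

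The genes whose normalized log2 values ran most like those of Jun and Fos over the 6 arrays were sought among the 8360 genes above background on every array. For Jun they were Nsun5, Epb41l2, Ggct, Iqgap3 and Zfp64, with Pearson's r from 0.986 to 0.995, and for Fos they were Stk11, Ptpn2, Chtop, Utp4 and Adat1, with r from 0.967 to 0.994. All 10 varied less than the gene they were matched to, as with Stk11, whose signals ran only from 1367.5 to 1733.4. The correlations describe 6 shared arrays and were picked as the highest of all those searched.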

How the data were processed

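Each deposited value is a probe's intensity, linear in scale, and the authors used BeadStudio per the submitters' processing notes, which name no version. Between 31.3% and 34.2% of an array's values were below 0, so a background had been subtracted. The method for that, any normalization between arrays and the genome build: not given in the sources used here. The intensities were quantile normalized, floored at 0, raised by 16 and taken to log2. All probes were fitted in R 4.3.3 by the lmFit and eBayes functions of limma 3.58.1, the latter with its trend option. Arrays were grouped by the samples' descriptions. Of the 45281 probes, 34885 had 1 symbol, 18 several and 10378 none in the platform annotation. A gene in a list was read at its brightest probe. With 3 arrays a group no exact permutation p can be under 0.10, so that test was not used, and so few arrays limit the precision throughout. The fit was tested on simulated data. The members and lists were chosen with earlier results of these data known, and the background limit was defined after the data were seen. Named by rule were all members, Klf4, the markers, up to 4 bright genes per list with the smallest p, and the 5 genes most like Jun or Fos. Alternatives covered the normalization and its order, offset, filter, variance prior, a block for the replicate number, array weights, 1 probe per gene and each array left out.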

Additional observations from a re-analysis of the deposited data

How the results depend on the processing

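The AP-1 probes were refitted under 18 alternatives, of which the filter on bright probes leaves out the dim ones. The signs of Jun, Junb, Fos, Fosb, Fosl2 and Batf held in all 18, and none of these 6 was called in any. The difference of Jund turned to -0.0129 with arrays centred on their median and to -0.0382 with no normalization, and ran from -0.0585 (without K1) to 0.1437 (without K3) with 1 array left out. That of the second brightest Atf2 probe turned to -0.0038 with array weights and ran from -0.0206 (without C1) to 0.2557 (without K2), and was also below 0, at -0.0144, without K3. That of the brighter Maff probe turned to 0.0446 with array weights and ran from -0.3231 (without C3) to 0.0182 (without C2). The cause was not tested in these 3 cases. The median of the member probes was 0.28 both with the bright probes and with 1 probe per gene. The former leaves out all dim probes, and the latter all but the brightest probe of each gene, so that Atf3 and Maff stay in. Leaving out 1 array gave 0 to 1 called member probes. The 1 was Atf3 without C2 (-0.14, adjusted p = 0.0394 in limma), all of whose values lie under the background limit. Member probes whose groups did not overlap, in either direction, numbered 1 to 6, the most without C3, when 15.1% of all probes were apart. Called probes over the whole table were 23 to 46 with 1 array left out, 0 with arrays centred on their median, 1 with cyclic loess, 1 with bright probes and 0 with the replicate block. The fit with the replicate number as a block changed no call among the members, and samples of the same number did not deviate together (correlations of 0.177, -0.078 and -0.105). With no normalization the median of the bright genes moved to -0.11. Alternatives for the immediate early list were added after the data were seen, and its median ran from 0.08 with no normalization to 0.23 with an offset of 1.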

Other observations

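Among other basic leucine zipper genes, Nfe2, Cebpb and Jdp2 gave their highest signal on K3 and Bach1 on C1. These genes were chosen after their values were seen. Nfe2, an erythroid and megakaryocyte factor, gave 462, 653.5 and 578.8 in the controls and 535.2, 857.3 and 1796.1 in the arrays labelled Klf4-deficient (log2 difference 0.85 ± 0.57 SE, adjusted p = 0.825 from limma). Cebpb, a myeloid factor, gave 639, 551.2 and 466.9 against 581.9, 666.3 and 931.1 (0.48 ± 0.29), and Jdp2, a repressor that pairs with Jun, 57.2, 73.7 and 54.4 against 58.4, 51.4 and 149.3 (0.36 ± 0.45). Atf4 was highest on K1, at 1807.7 against at most 1414.6 on the other 5. Bach1, a repressor that pairs with small Maf proteins, gave 1412.4, 943.2 and 985.6 in the controls and 1135.8, 641.9 and 646.4 in the arrays labelled Klf4-deficient (-0.38 ± 0.26).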
